A study of Mus musculus with 6 samples.

Results

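The *Ctla2* inhibitors, the cathepsins and the cystatins were examined in RNA-Seq data of mouse embryonic fibroblasts (MEFs), which are primary fibroblasts grown from embryos. The members were chosen by name: *Ctla2a*, one of the genes the study shows, its paralog *Ctla2b*, the cysteine cathepsins *Ctsl*, *Ctsb*, *Ctsk*, *Ctss* and *Ctsz*, the aspartic cathepsin *Ctsd*, and the cystatins *Cst3* and *Cstb*. All 10 were found among the 25043 genes of the authors' table, with 13 transcripts in all. Where a gene had several transcripts, the one with the highest mean was taken. *Ctla2a* entered because the study shows it as an example of its comparison of genotypes, and the others entered by family. The study sequenced 3 libraries of wild type (WT) and 3 of *Anp32e* null MEFs, below passage 8 and grown in DMEM with 10% FBS, with no other treatment named, to ask how loss of the H2A.Z chaperone ANP32E changes gene expression. Its methods give WT and *Anp32e*-/- embryos as the source of the cells, and neither the labels nor the methods say how many embryos gave the cultures or whether the libraries of 1 genotype came from separate ones.

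The value reported here is the authors' mean normalized count: reads counted on a RefSeq transcript, divided by a size factor for each library, and averaged over all 6 libraries of both genotypes. The columns that compare the genotypes are the authors' own outcome and were not used, so no difference between WT and *Anp32e* null MEFs is given, and a mean over both genotypes has no replicate error. For transcripts with few reads, the printed digits of the mean were enough to recover the whole reads of each library. These libraries carry no label in the table. They are numbered 1 to 6 by falling size factor, from 1.13 to 0.909, and were not assigned to a genotype. *Anp32e*, the targeted gene, had an authors' mean of 2190 normalized counts over both genotypes, which does not check the labels.

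Cathepsins are proteases of the endosome and lysosome. Cysteine cathepsins are made as inactive precursors whose amino-terminal propeptide folds into the active site cleft until it is cut off. CTLA-2 proteins, first described in activated T cells and also known from mast cells, resemble such a free-standing propeptide and are known to inhibit cathepsin L-like enzymes. Cystatins are a separate family of inhibitors: cystatin C, the product of *Cst3*, is secreted, and stefin B, the product of *Cstb*, stays in the cell.

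The paralogs are shown first, because reads can be assigned to one or the other only where their letters differ. Over the 342 coding bases that *Ctla2a* and *Ctla2b* share in the GENCODE annotation, 13 bases differed (identity 96.2%). This *Ctla2b* transcript is the one with the lower mean. The coding sequence of the other, whose level is given below, had 15 differing bases and 3 gap positions over 339 (95.6%). *Ctla2a* has 72 more coding bases at the 5' end. The stretches below hold all 13 differences, in capitals.
*Ctla2a* coding bases 73 to 372: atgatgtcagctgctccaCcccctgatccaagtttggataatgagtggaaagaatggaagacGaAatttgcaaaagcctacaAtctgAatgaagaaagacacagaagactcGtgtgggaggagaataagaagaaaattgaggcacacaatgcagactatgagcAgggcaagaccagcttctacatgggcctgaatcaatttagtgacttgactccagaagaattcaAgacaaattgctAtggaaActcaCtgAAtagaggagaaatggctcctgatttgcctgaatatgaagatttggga
*Ctla2b* coding bases 1 to 300: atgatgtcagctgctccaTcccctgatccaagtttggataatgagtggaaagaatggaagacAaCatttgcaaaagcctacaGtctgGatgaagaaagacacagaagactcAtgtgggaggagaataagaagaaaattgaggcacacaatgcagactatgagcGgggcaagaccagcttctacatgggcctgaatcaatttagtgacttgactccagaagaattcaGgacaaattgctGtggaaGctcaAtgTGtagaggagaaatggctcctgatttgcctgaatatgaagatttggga
The differences are spread along the stretch, and no window of 150 bases, the length of the reads, was the same in both annotated transcripts: 0 of 1224 windows of the *Ctla2a* transcript occurred in either *Ctla2b* transcript. Of its 1324 windows of 50 bases, 94 did. A full-length read from the spliced transcript can therefore be told apart, while shorter matching pieces cannot always be. The methods state default settings for the counting, under which featureCounts leaves out reads with several alignments. Both *Ctla2a* transcripts carry the same mean, so whether these settings were kept is unclear.

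Both genes lie on chromosome 13 of GRCm38 on the minus strand, *Ctla2b* from 60895351 to 60897934 and *Ctla2a* from 60934155 to 60936625, with starts 38.8 kb apart. Their promoters, the 250 bases before and 50 after the RefSeq start (GRCm38.p6), are shown because the pair is so alike in sequence and so unlike in level. Capitals mark TGACTCA, the letters of the AP-1 motif, and TATAAA, the letters of a TATA box.
*Ctla2a* promoter, chr13:60936576-60936875, minus strand: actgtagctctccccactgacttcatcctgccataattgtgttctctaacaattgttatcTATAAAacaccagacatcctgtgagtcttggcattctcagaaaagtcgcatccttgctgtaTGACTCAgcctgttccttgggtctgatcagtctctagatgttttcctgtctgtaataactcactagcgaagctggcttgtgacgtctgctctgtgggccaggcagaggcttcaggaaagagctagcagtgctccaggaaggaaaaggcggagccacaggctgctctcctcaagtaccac
*Ctla2b* promoter, chr13:60897398-60897697, minus strand: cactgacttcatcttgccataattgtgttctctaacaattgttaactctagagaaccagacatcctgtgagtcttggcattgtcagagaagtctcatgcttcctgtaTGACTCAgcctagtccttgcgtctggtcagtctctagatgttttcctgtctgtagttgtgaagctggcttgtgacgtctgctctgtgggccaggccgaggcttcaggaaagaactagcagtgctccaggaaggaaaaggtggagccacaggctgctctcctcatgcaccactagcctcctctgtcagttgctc
The *Ctla2b* start used here lies 487 bases inside the RefSeq span of the gene, whose longer end is not covered by the window. *Ctla2a* has a second RefSeq start 59 bases inside the first, from which the motifs below lie 188 (TGACTCA) and 249 (TATAAA) bases away. Over 278 aligned bases the windows had 23 differing bases, an identity of 91.7%, with 8 gap positions. TGACTCA, searched on both strands, began 129 bases before the start of *Ctla2a* and 143 before that of *Ctla2b*, and 5.20% of all 32851 RefSeq promoter windows hold it. TATAAA began 190 bases before the start of *Ctla2a* and had no match in the *Ctla2b* window, and 13.6% of all windows hold it on either strand. The motifs do not overlap each other. A match is a description of the letters only. A TATA box lies close to the start, so TATAAA at 190 or 249 bases was not counted as one.

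*Ctla2a* and *Ctla2b* differed in mean level over all libraries despite this likeness. The authors' mean was 87.0 normalized counts for *Ctla2a* and 6.68 for *Ctla2b*. Per kilobase of transcript (1.373 and 1.094 kb in GENCODE), the level was 63.4 for *Ctla2a* and 6.11 for *Ctla2b*, a ratio of 10.4. With the recovered reads described below, this ratio rests on libraries 3, 5 and 6. *Ctla2b* was above *Ctla2a* in library 1 (4.42 against 0.884 normalized counts) and library 2 (3.80 against 0). In library 4, *Ctla2a* was at 6.08 and *Ctla2b* at 2.03. The Poisson 95% intervals of the pair overlapped in libraries 1, 2 and 4. Both *Ctla2a* transcripts of the table carry the same mean, and the 2 of *Ctla2b* have 6.68 and 5.70. Ranked by mean count with the 13768 genes on autosomes that reached 10 normalized counts, *Ctla2a* stood at percentile 17.9, and *Ctla2b* was under this minimum. Without the minimum *Ctla2a* stood at 39.2 and *Ctla2b* at 23.3.

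The mean of *Ctla2a* hides a wide spread between libraries. Its reads rest on size factors refined over transcripts with 1 to 3 reads, since the size factors from single reads alone left 2 possible sets of reads for this gene, 1 of them with other libraries high. With the refined ones, its recovered reads were 1, 0, 223, 6, 147 and 128 in libraries 1 to 6, which are 0.884, 0, 217, 6.08, 157 and 141 normalized counts. Libraries 3, 5 and 6 were high, and libraries 1, 2 and 4 had at most 6 reads. The lowest Poisson 95% bound among the high libraries was 117 and the highest bound among the low ones 13.2 normalized counts, so these values differed by more than counting error. In library 2, 0 reads allow up to 2.85 normalized counts by a limit of 3 reads, and the wider Poisson interval ends at 3.51. These intervals and limits cover counting error only.

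*Ctla2b* had reads in all 6 libraries, with 40 reads in total against 505 for *Ctla2a*. They numbered 5, 4, 15, 2, 5 and 9 in libraries 1 to 6. Normalized, the counts ran from 2.03 in library 4 over a median of 4.88 to 14.6 in library 3. Library 3 had the most reads of both paralogs. Its Poisson 95% interval for *Ctla2b*, 8.17 to 24.1 normalized counts, overlapped that of each library but library 4, where it was 0.245 to 7.32. Both paralogs had reads in the same library in 5 of 6 cases, and library 2 had reads of *Ctla2b* but none of *Ctla2a*.

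**Figure D1:**
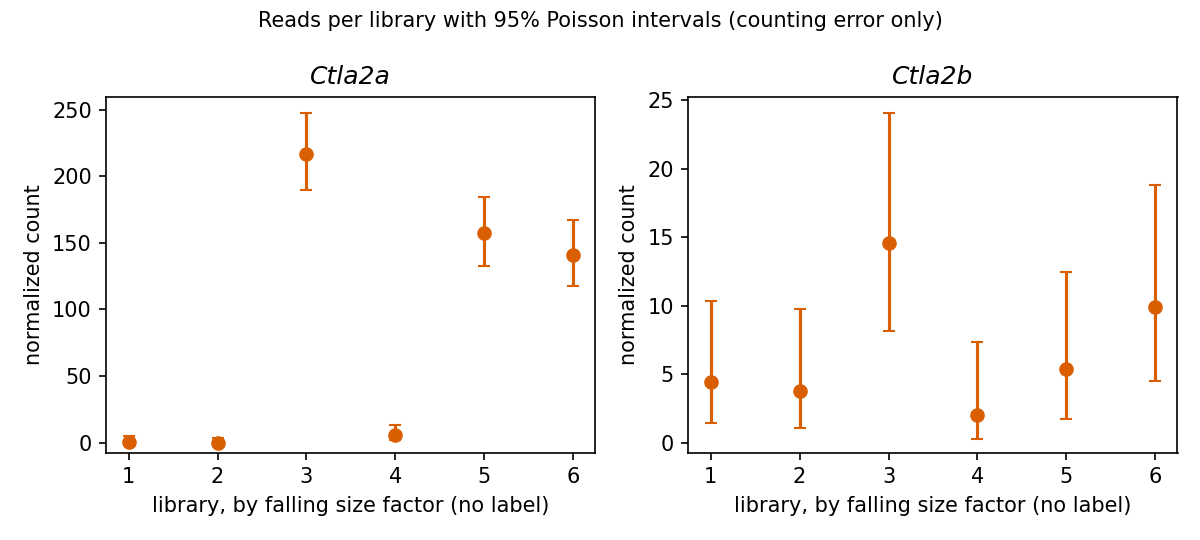
Normalized count (vertical axis) of *Ctla2a* (left) and *Ctla2b* (right) in the 6 unlabelled libraries, numbered by falling size factor (horizontal axis), with points for the recovered reads and bars for Poisson 95% intervals of counting error. *Ctla2a* lies between 141 and 217 in libraries 3, 5 and 6 and at most at 6.08 in the others, while *Ctla2b* stays between 2.03 and 14.6.

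Markers of other cell types were examined beside the paralogs, and their part in the values was not tested. Of the T cell and mast cell list, 8 of 9 genes are in the table. *Cd3e*, *Cd3g*, *Cpa3*, *Fcer1a* and *Mcpt4*, which define these cells, were at 0 reads. *Cd4*, *Cd8a* and *Kit* had reads, with means above 0 but under 3. The summed level of the 8 genes was between 1.77 and 10.7 normalized counts per library. Of 6 epithelial markers, the 5 with recovered reads (without *Krt18*) summed to 19.5, 36.1, 186, 40.5, 172 and 155 normalized counts in libraries 1 to 6. *Cdh1*, which encodes E-cadherin, made up most of them in libraries 3, 5 and 6, with 9, 4, 152, 6, 105 and 113 reads, and was high in the libraries where *Ctla2a* was high. Without *Cdh1* the epithelial sums were 11.5, 32.3, 38.0, 34.4, 59.9 and 30.8, and the libraries no longer separated in this way. The 6 trophoblast markers summed to 27.4, 20.9, 65.2, 22.3, 53.4 and 34.1, with *Tpbpa*, the neighbour of *Ctla2a*, at 0. *Prl2c2*, singled out after its values were seen, sets this order: without it the sums were 22.1, 11.4, 14.6, 11.1, 10.7 and 11.0, highest in library 1. The 8 macrophage markers with recovered reads, of 10, summed to 30.1, 42.8, 54.5, 37.5, 71.6 and 68.2. *Csf1r*, the receptor of a macrophage growth factor, held most of these reads (25, 31, 51, 26, 53 and 51), and *Tyrobp* was at 0. Without *Csf1r* the sums were 7.96, 13.3, 4.87, 11.1, 14.96 and 12.1, lowest in library 3. The 5 endothelial markers with recovered reads, of 6, summed to between 29.5 and 63.1, and *Emcn* was at 0. The genes left out of these sums had too many reads to be recovered by library. They were *Krt18* (mean 1106), *Cd68* (257), *Cd14* (233) and *Kdr* (2958). The epithelial, macrophage and endothelial sums therefore lack the highest genes of their lists and understate the level of these lists. In bulk samples, fewer cells of a type and less RNA per cell cannot be told apart.

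Most genes around *Ctla2a* had few or no reads. From *Dapk1* to *Cts3*, a span of 968 kb, the table lists 17 genes, of which 9 had no reads and 3 a mean of at least 10: *Dapk1*, 4930486L24Rik and *Ctla2a*. As background, of 25043 genes on all chromosomes, 18581 autosomal genes had a mean above 0 and 13768 one of at least 10. The 9 genes of this span with a cathepsin name (Cts) include *Ctsj*, *Ctsq*, *Ctsr*, *Cts6*, *Cts8*, *Cts7*, *Ctsm* and *Cts3*, which are known from the placenta. Genes without such a name, among them 4930486L24Rik (mean 21.1) and *BC051665* (0), were not sorted by family. Of these 9, 6 had no reads, and the highest mean was 0.487 normalized counts (*Ctsll3*). The pseudogene Cts8-ps was at 0.534. *Tpbpa* and *Tpbpb*, trophoblast genes that flank *Ctla2a* on its 2 sides, also had none. *Ctsl* lies 3.43 Mb further along the chromosome, from 64361890 to 64370772.

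**Figure D2:**
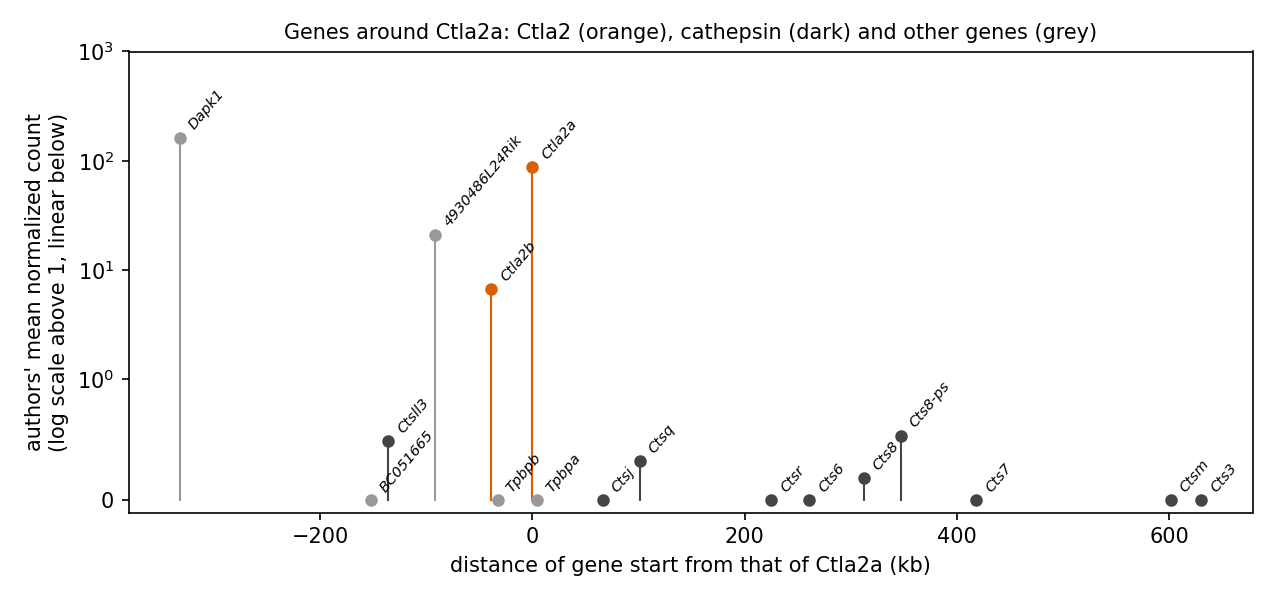
Authors' mean normalized count (vertical axis, logarithmic above 1 and linear below) of the 17 listed genes around *Ctla2a* against the distance of their starts from that of *Ctla2a* in kb (horizontal axis). *Ctla2a* at 87.0 and *Ctla2b* at 6.68 stand among 9 genes with a cathepsin name that are at most at 0.487. The cathepsin pseudogene is at 0.534, and the other genes were not sorted by family.

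The likeness of *Ctla2a* to cathepsin precursors was measured at the level of coding sequence, by local alignment to 22 cathepsin genes. The placental cathepsins next to it scored highest, from 230 for *Cts6* to 286 for *Ctsm*. *Ctsl* followed with a score of 164 (63.6% identity over 357 aligned bases), and *Ctss* with 129. The aligned part of *Ctsl* ran from coding base 16 to 404 of 1005, the part that encodes the signal peptide and propeptide and the start of the mature enzyme. *Ctsk* scored 81.5, close to *Ctsh* at 80.5. The other genes of these 22 scored 77.5 or less. Among these are *Ctsd*, *Ctsa*, *Ctsg* and *Ctse*, which belong to unrelated protease families and scored between 52.0 and 69.5, so scores of this size say nothing about kinship. *Ctla2b* gave the same separation, with 194 or more for the placental genes, 152.5 for *Ctsl* and 105.5 for *Ctss*. In these cells the cathepsins that scored highest were at or near 0, and of the 2 next in score *Ctsl* had a mean of 10211 and *Ctss* of 0.356.

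**Figure D3:**
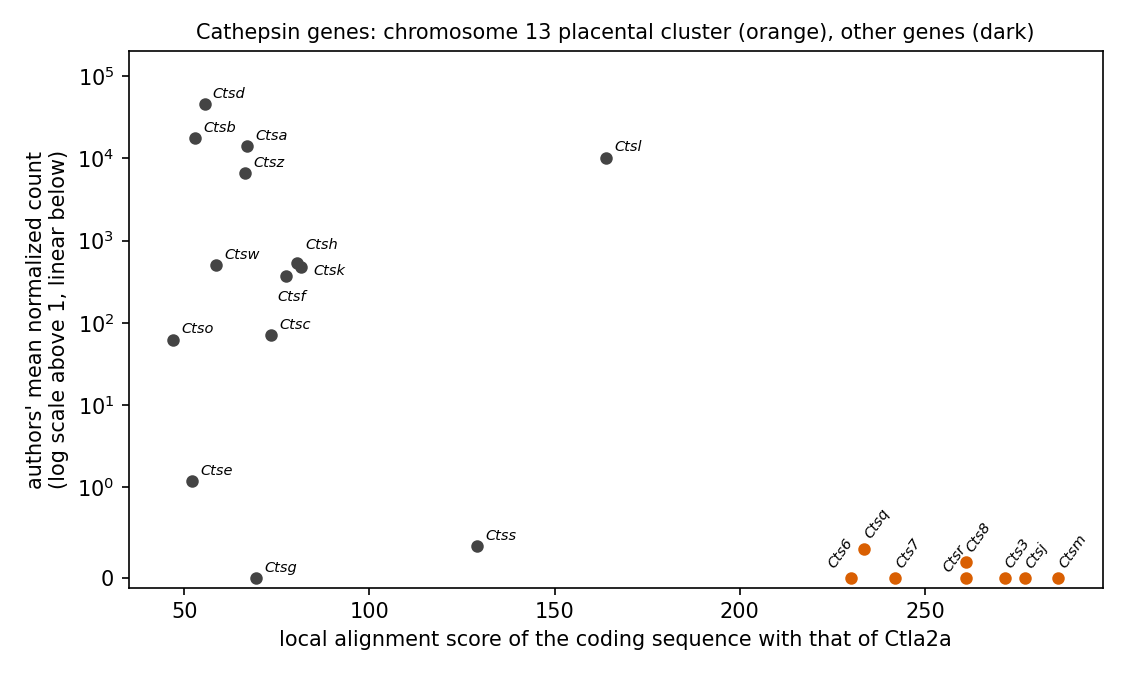
Authors' mean normalized count of 22 cathepsin genes (vertical axis, logarithmic above 1 and linear below) against the local alignment score of their coding sequence with that of *Ctla2a* (horizontal axis). The 8 placental genes of chromosome 13 score 230 or more and have means of at most 0.324, and *Ctsl* scores 164 with a mean of 10211.

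Of the 6 cathepsins among the members, 4 stood in the upper part of the ranking by mean count. *Ctsd*, the main aspartic protease of the lysosome, had the highest mean of the 10 members, with 46005 normalized counts, and stood at percentile 99.2. It lies on chromosome 7 from 142375910 to 142387827, with 9 exons. *Ctsb*, which also removes dipeptides from the carboxyl end of proteins, had a mean of 17604 (percentile 96.8). It lies on chromosome 14 from 63122462 to 63145923, with 10 exons. *Ctsl*, the endopeptidase that CTLA-2 proteins inhibit, had 10211 (percentile 93.8), and *Ctsz*, a carboxypeptidase on chromosome 2 (174427494 to 174439039), 6595 (percentile 89.4). *Ctsb* overlaps *Fdft1* (mean 6133) by 774 bases. The kit marks strand, but counting with the default settings that the methods state does not use it. If these settings were kept, reads of the overlap cannot be assigned to either gene. If reads were instead counted on each transcript they overlap, these reads count on both genes. *Ctsz* overlaps *Nelfcd* by 12 bases.

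Levels of different genes were compared per kilobase of transcript. On this scale *Ctsd* was again the highest protease, at 21629 normalized counts per kb, 5.83 times *Ctsb* at 3712, and 2.16 times per kilobase of coding sequence. *Ctsl* was at 5181 and *Ctsz* at 4576 per kb, so *Ctsl*, *Ctsz* and *Ctsb* lay close together. Their order depends on the length used: per kilobase of coding sequence, *Ctsb* (17259) came before *Ctsl* (10160.5) and *Ctsz* (7160.3). The *Ctsb* transcript is the longest of the 10, at 4.743 kb. No replicate error is known for these means, so whether neighbours in this order differ was not tested.

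*Ctsk* (95499210 to 95509387) and *Ctss* (95526786 to 95556405), neighbours on chromosome 3 that are 17.4 kb apart, were far below the other cathepsins among the members. *Ctsk*, a collagen-cleaving enzyme best known from osteoclasts, had a mean of 476 normalized counts (percentile 36.0) and 315 per kb. *Ctsd* was 68.7 times and *Ctsl* 16.5 times as high per kilobase. The osteoclast markers *Calcr*, *Ocstamp*, *Dcstamp* and *Atp6v0d2* were at 0, and the 6 markers of this list summed to between 15.2 and 38.0 normalized counts per library. The other markers of the list, *Acp5* (mean 14.8) and *Oscar* (mean 9.77), had reads in every library and made up these sums. *Ctss*, which cleaves the invariant chain in antigen-presenting cells, had a mean of 0.356, from 2 reads in library 5 and 0 in each of the other 5. Each count of 0 allows up to 3 reads, or 2.65 to 3.30 normalized counts, and the Poisson 95% interval of the 2 reads in library 5 was 0.259 to 7.72. Both *Ctss* transcripts of the table carry the same value.

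*Cst3* and *Cstb*, on chromosomes 2 (148871722 to 148875512) and 10 (78425670 to 78427622), were 2 of the 3 highest members per kilobase. *Cst3* had a mean of 33547 normalized counts (percentile 98.8) on a transcript of 0.86 kb, and with 39008 per kb it was the highest of the 10 members, 1.80 times *Ctsd*. *Cstb* had a mean of 9017 (percentile 92.8) and 14953 per kb, 4.03 times *Ctsb*, and 1.76 times per kilobase of coding sequence. Of the summed level of all members per kilobase, *Cst3* held 43.6%, *Ctsd* 24.2% and *Cstb* 16.7%. The 4 inhibitor genes together held 60.4% and the 6 cathepsins 39.6%. *Ctla2a* held 0.0708% of this sum, and *Ctsl* was 81.8 times as high per kilobase as *Ctla2a*, or 48.4 times per kilobase of coding sequence. These are levels of RNA and not of protein, and *Ctsd* as an aspartic protease is not a target of cystatins.

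**Figure D4:**
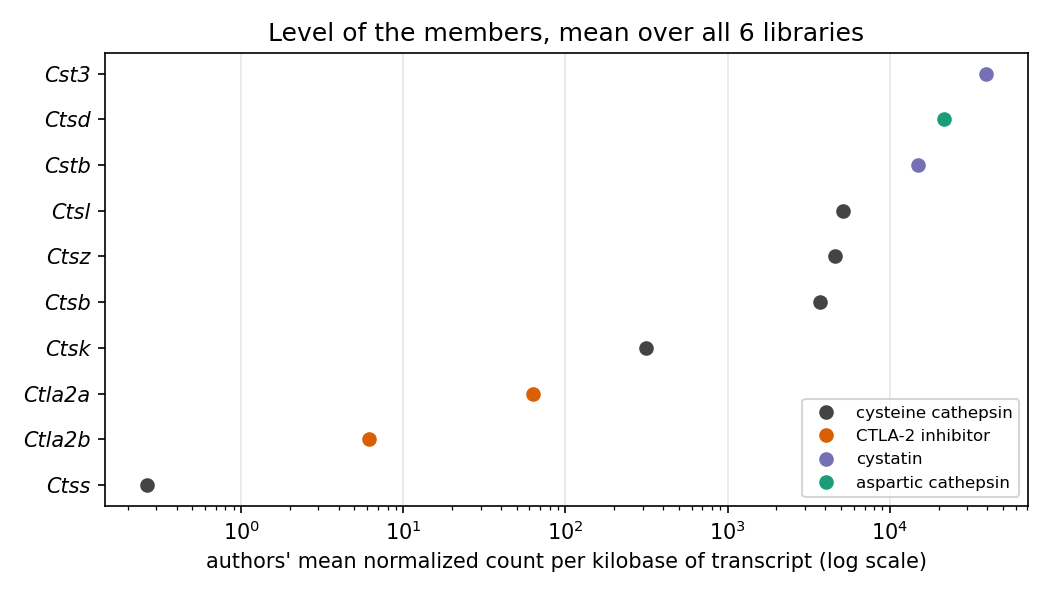
Authors' mean normalized count per kilobase of transcript (horizontal axis, logarithmic) for the 10 members, ordered by level and coloured by family. *Cst3* at 39008 and *Ctsd* at 21629 lead, *Ctla2a* at 63.4 and *Ctla2b* at 6.11 are near the bottom, and *Ctss* is last at 0.263.

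Promoter windows were found for 8 of the 10 members, with no entry for *Ctsb* and *Cstb*. Those of *Ctsd* and *Ctsl* are shown because they hold CACGTG, the core of the E-box that lysosomal gene regulators such as TFEB bind, here in capitals.
*Ctsd* promoter, chr7:142387778-142388077, minus strand: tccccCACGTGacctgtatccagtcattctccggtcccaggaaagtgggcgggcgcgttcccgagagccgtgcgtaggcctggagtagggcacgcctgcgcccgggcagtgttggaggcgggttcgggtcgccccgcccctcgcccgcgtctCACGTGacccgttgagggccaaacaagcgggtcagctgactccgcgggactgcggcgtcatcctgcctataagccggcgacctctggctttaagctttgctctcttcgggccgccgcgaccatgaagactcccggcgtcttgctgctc
*Ctsl* promoter, chr13:64370471-64370770, minus strand: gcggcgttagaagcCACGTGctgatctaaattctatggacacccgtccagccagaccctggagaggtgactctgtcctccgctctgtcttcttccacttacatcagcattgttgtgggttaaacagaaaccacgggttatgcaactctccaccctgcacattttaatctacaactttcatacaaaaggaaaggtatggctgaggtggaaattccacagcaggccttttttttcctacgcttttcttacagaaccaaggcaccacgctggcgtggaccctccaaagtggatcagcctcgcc
CACGTG, which reads the same on both strands, began 245 and 98 bases before the start of *Ctsd* and 236 before that of *Ctsl*. This *Ctsl* start lies 252 bases inside the RefSeq span of the gene, so the window and its CACGTG are within that span. Of all 32851 windows, 7.15% hold it at least once and 0.594% at least 2 times. It had no match in the windows of the other 6 members with an entry. TATAAA also matched in that of *Ctss*, on the opposite strand and 233 bases before the start. GGGCGG, the GC box, was found on either strand in those of *Cst3*, *Ctsz*, *Ctss* and *Ctsd*, against 35.7% of all windows. CCAAT was found in that of *Ctsz*, against 37.4%. None of these overlaps a CACGTG. The *Ctsd* window held 33 CpG dinucleotides and those of *Cst3*, *Ctsz* and *Ctsl* 13, 12 and 10, while those of *Ctss*, *Ctla2a*, *Ctla2b* and *Ctsk* held 5, 4, 3 and 2, against a median of 7 over all windows.

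Other genes of the pathway were taken from fixed lists. As background for the counts in these lists, 13768 autosomal genes of 25043 genes on all chromosomes reached a mean of 10. Of 16 further cathepsins, 6 had a mean of at least 10 normalized counts, 3 a mean above 0 but under 3, and 7 no reads. The 3 highest were *Ctsa* (14241), a serine carboxypeptidase that protects other lysosomal enzymes, *Ctsh* (527), an aminopeptidase, and *Ctsw* (501). Per kilobase they were at 5620, 326 and 404. *Ctsa* overlaps *Pltp* and *Neurl2*, and *Ctsw* overlaps *Fibp* (mean 1752) by 10 bases, so reads from these genes could count on them. *Ctsc*, which activates serine proteases of immune cells, was even across libraries with 79, 66, 74, 63, 73 and 69 reads. *Ctso* had 95, 109, 47, 74, 25 and 35 reads, highest in libraries 1 and 2.

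Of 19 further cystatins and stefins, 18 are in the table. Only *Cst6* (312), a secreted cystatin, and *Fetub* (37.4), a fetuin, had a mean of at least 10. *Kng1*, the kininogen gene, had 4.49, and the other 15 were under 3, with 8 at 0. *Cst6* was at 79.0 normalized counts per kb, beside 63.4 for *Ctla2a*. Apart from *Cst3* and *Cstb*, no cystatin gene in the list was above the mean of *Ctsk*.

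All 14 genes for the processing and delivery of cathepsins had a mean of at least 10. *Lamp1* (36933), a protein of the lysosomal membrane, *Psap* (36302), the precursor of the saposins, and *M6pr* (9015), a receptor that carries mannose 6-phosphate-tagged enzymes to the lysosome, were the highest. Per kilobase, *Lamp1* was at 16569 and *Psap* at 13663, beside 14953 for *Cstb* and 21629 for *Ctsd*. The fibroblast label was checked against 10 markers, all at 628 normalized counts or more and *Vim* at 330695. Of the markers of other cells, the highest were *Kdr* (2958) in the endothelial and *Krt18* (1106) in the epithelial list, and for the macrophage list *Cd68* (257) and *Cd14* (233). These 4 had too many reads to be recovered by library.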

How the data were processed

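RNA-Seq of 3 WT and 3 *Anp32e* null MEF libraries was examined. Per the paper's methods and the submitters' processing notes, total RNA libraries made with a stranded kit were aligned to mm10 with STAR, counted on RefSeq transcripts with featureCounts from Subread, and compared with DESeq2, both with default settings. Both transcripts of *Ctla2a*, and both of *Ctss*, carry the same mean. These values look as if reads were counted on each transcript they overlap, which the default settings do not do. The settings that were used are therefore unclear. The deposited signal column holds, for each transcript, the authors' normalized read counts (scaled with DESeq2) averaged over all 6 libraries. The 5 further columns hold the authors' comparison (log2 fold change, its error, statistic, p-value, adjusted p-value) and were not used. A test on counts per library had been planned, and with 1 pooled mean none could be made.

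Of 42361 transcripts, 42203 were matched to a gene with RefSeq (GRCm38.p6). Lengths were those of the matching GENCODE M21 transcript, in place of the RefSeq lengths planned. Library totals are unknown. Size factors were computed from the 6 distinct means that 1 read gives, and as an alternative refined by least squares over transcripts with 1 to 3 reads. Reads were recovered by listing all sets of 6 whole numbers that give the printed mean within its 15 digits, up to a mean of 88, a limit set to take in *Ctla2a*. The tolerance for the refined size factors was widened after 2 low means had no solution. All 3623 distinct means under 10 had 1 solution with either, and of 76 transcripts tried from the lists 74 had 1 with single reads and 76 with the refined size factors. For *Ctla2a*, a second set lay 2.6e-13 from the mean, outside the tolerance of the refined size factors (9.5e-14, and 7.3e-14 as first set) but within that of the single-read ones (3.4e-13). The search was also run on simulated means made with the same refined size factors. That run holds no error in the size factors, so it cannot test the choice between the sets of *Ctla2a*. Local alignments to the cathepsins scored 2 for a match, -1.5 for a mismatch, -5 to open and -1 to extend a gap. The identities of the paralogs came from global alignments with free end gaps and smaller penalties for a mismatch and for extending a gap. Python 3.11.15, numpy 2.4.6, pandas 2.3.3, scipy 1.17.1, biopython 1.88 and matplotlib 3.10.9 were used.

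The members and lists were chosen with earlier results of these data known. The genes named are the 10 members, the 3 highest of each pathway list, genes under 3 by name only, and neighbours or markers beside a result, of which *Cdh1*, *Csf1r*, *Prl2c2*, *Ctsc* and *Ctso* were named after their values were seen. Alternatives were the transcript, the length, the genes ranked and the steps. Protein sequences were not used here, so the identity of the CTLA-2 proteins was replaced, after the files were seen, by alignments of coding sequences.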

Additional observations from a re-analysis of the deposited data

How the results depend on the processing

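With a minimum mean of 50, the longest transcript or the median over distinct transcript values, 8 of the 10 members passed the minimum, as with a minimum of 10. A minimum of 10 was passed by 13768 autosomal genes, of 25043 genes on all chromosomes. Per kilobase, all 10 kept their place with the longest transcript, and 7 did with coding length, an alternative chosen after seeing the data, where *Ctsb*, *Ctsl* and *Ctsz* changed places. The number of members above the 85th percentile was 6 with low values unfiltered, with X and Y genes included and with every transcript counted. Percentiles moved by at most 21.3 points without the filter, 3.21 with every transcript and 0.210 with X and Y genes. With size factors from single-read transcripts alone, 2 members had 1 set of reads, and *Ctla2a* had 2 sets, libraries 1 to 6 then being 1, 0, 223, 6, 147 and 128 or 43, 108, 2, 183, 167 and 14 reads. With the refined size factors 3 members had 1 set. The other 7 members had too many reads. No paired analysis was possible because the mean is pooled over all libraries. For the same reason the test of the genotypes, its other scalings and filters, and the fits without each replicate were not run. Neither was the protein alignment.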

Other observations

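With the refined size factors, the recovered reads of *Ctla2a* fell into 2 separate clusters of libraries, with 217, 157 and 141 normalized counts in libraries 3, 5 and 6 and 0.884, 0 and 6.08 in libraries 1, 2 and 4. *Cdh1*, singled out after its values were seen, did the same, with 152, 105 and 113 reads in libraries 3, 5 and 6 and 9, 4 and 6 in libraries 1, 2 and 4. *Ctso*, also singled out afterwards, had 47, 25 and 35 reads in libraries 3, 5 and 6 and 95, 109 and 74 in libraries 1, 2 and 4. *Ctsc* did not separate, with 74, 73 and 69 against 79, 66 and 63 reads. *Prl2c2*, a placental prolactin-family gene singled out in the same way, had 52, 40 and 21 reads in libraries 3, 5 and 6 and 6, 10 and 11 in the others, while *Prl3d1* of the same marker list had 4, 3 and 9 against 20, 3 and 7. The libraries were not assigned to genotypes, and no difference between the clusters was tested.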
